A study of Mus musculus with 12 samples.

Results

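The genes described here are 8 metal-handling genes of the mouse liver. They are the metallothioneins Mt1 and Mt2, the zinc-sensing transcription factor Mtf1, the exporters Slc30a1 and Slc30a10, and the importers Slc39a14, Slc39a4 and Slc39a5. The members were chosen by gene name, with earlier results of these counts known and with no stated measured value or threshold. Every value and test on these genes is therefore a description of the 12 libraries and not independent evidence. The 8 genes are among 24527 gene symbols counted, and all 8 passed the filter on low counts that left 13204 genes for testing.

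Polyadenylated RNA was sequenced from snap-frozen livers of offspring of CF1 females and B6SJL males at 39 weeks of age. The 4 groups were IVF females, IVF males, naturally conceived females and naturally conceived males, with n = 3 libraries each. In in vitro fertilization (IVF), eggs are fertilized outside the body. No transgene, deleted gene, drug or diet is named in the labels of any group, and the study's title names effects of IVF on adult metabolism and the liver transcriptome that are specific to a sex. The labels call the libraries of a group replicates without saying that each came from a separate animal, so the p-values here measure only the spread between these libraries, which may be technical.

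Metallothioneins are small cysteine-rich proteins that bind zinc and copper and are made in the liver in response to metals, glucocorticoids and inflammatory signals. MTF-1, the product of Mtf1, senses free zinc and binds metal response elements in the promoters of the metallothionein genes and of Slc30a1. Proteins of the SLC30 (ZnT) family move zinc out of the cytosol, and those of the SLC39 (ZIP) family move it in. Slc30a1 encodes the zinc exporter of the plasma membrane, whereas Slc30a10 encodes a manganese exporter of the canalicular side of hepatocytes. Slc39a14 encodes an importer of zinc, manganese and iron that is induced in liver during inflammation. Slc39a4 and Slc39a5 encode zinc importers best known from the intestine and, for Slc39a5, the pancreas.

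Positions are those of GENCODE M21 on GRCm38, the assembly that mm10 also names. Mt2 (chr8:94172664-94173568) lies just upstream of Mt1 (chr8:94179082-94180327), and both are on the plus strand. The other members are Mtf1 (chr4:124802104-124849800, plus strand), Slc30a1 (chr1:191906767-191913247, plus strand), Slc30a10 (chr1:185454848-185468762, plus strand), Slc39a14 (chr14:70303469-70351425, minus strand), Slc39a4 (chr15:76612383-76617384, minus strand) and Slc39a5 (chr10:128395931-128401229, minus strand). In that annotation, exons of a gene on the opposite strand overlap exons of Mt2 over 432 bases, Mtf1 over 316, Slc30a1 over 468 and Slc30a10 over 533. The use of strand in counting is not given in the sources used here, so reads of such pairs cannot be told apart. How reads matching several genes were treated is not given either, which bears on the similar coding sequences of Mt1 and Mt2.

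Promoter sequences are shown for both metallothioneins, where metal response elements are known to act, and for the 2 exporter genes for comparison. RefSeq windows on GRCm38.p6, which run from 250 bases before to 50 after a RefSeq start, were found for 6 of the 8 members, and none was used for Slc39a14 and Slc39a4. Each window was searched on both strands for the core of the metal response element, TGCACNC or TGCGCNC. Capitals mark the matches, matches on the minus strand appear as their reverse complement, and each sequence stops 30 transcribed bases after the earlier of the RefSeq and GENCODE starts. The stretches are chr8:94178839-94179111 for Mt1, chr8:94172368-94172647 for Mt2, chr1:191906531-191906796 for Slc30a1 and chr1:185454598-185454877 for Slc30a10, all on the plus strand.
Mt1: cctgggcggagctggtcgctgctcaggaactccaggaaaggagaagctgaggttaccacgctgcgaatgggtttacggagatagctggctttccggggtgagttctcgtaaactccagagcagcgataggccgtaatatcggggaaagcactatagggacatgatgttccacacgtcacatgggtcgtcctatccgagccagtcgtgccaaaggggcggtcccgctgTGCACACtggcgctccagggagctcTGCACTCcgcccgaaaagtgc
Mt2: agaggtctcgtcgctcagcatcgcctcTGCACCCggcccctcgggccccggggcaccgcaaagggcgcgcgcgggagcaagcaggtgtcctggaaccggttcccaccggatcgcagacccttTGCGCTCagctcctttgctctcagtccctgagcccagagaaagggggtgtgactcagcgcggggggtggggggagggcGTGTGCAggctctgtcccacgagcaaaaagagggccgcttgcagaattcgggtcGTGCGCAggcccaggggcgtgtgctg
Slc30a1: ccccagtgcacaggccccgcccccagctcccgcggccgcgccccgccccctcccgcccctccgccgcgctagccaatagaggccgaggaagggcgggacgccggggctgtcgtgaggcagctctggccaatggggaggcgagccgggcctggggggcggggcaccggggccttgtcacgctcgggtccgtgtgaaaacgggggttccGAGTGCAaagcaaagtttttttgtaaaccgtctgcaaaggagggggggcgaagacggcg
Slc30a10: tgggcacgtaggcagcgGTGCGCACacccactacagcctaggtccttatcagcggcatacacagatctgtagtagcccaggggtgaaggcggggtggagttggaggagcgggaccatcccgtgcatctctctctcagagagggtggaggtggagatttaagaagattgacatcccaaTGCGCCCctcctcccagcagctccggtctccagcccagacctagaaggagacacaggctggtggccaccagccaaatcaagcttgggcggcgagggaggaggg
Counted from the RefSeq start as position 1, the Mt2 window held 4 matches, at -223, -128, -50 and 5. The Mt1 window held 3, at -23, 3 and 21, of which the last runs past the printed stretch. In Slc30a10 there were 3, at -233, -232 and -73, and the first pair overlap on opposite strands, so that 1 run of capitals shows both. Slc30a1 had 2, at -43 and 31, the second beyond the printed stretch. The Mtf1 window had 0 matches, and the 2 windows of Slc39a5 had 1 and 0. Of 32851 windows of 300 bases over 27025 genes, 25.7% held at least 1 match, 7.11% at least 2, 1.97% at least 3 and 0.518% at least 4. A match is a run of letters, not a measured binding site. The search covered only these windows around RefSeq starts, so matches outside them were not counted.

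Total counts ranged from 6826534 to 27832271 per library. The smallest were replicate 1 of the IVF females (6826534) and replicate 2 of the natural females (8056230). The liver label was checked against hepatocyte markers. All 7 that were measured passed the filter, with a summed level of 80512 to 113351 CPM, and albumin (Alb) alone averaged 64504 CPM. CPM are read counts scaled to the library total, which was adjusted as given below. Of 11 markers of pancreatic acinar cells, only Cela1 passed the filter and 4 were at 0 in every library. Of 7 intestinal markers, Fabp2 and Lgals4 passed and 1 was at 0. By counting error alone, a gene with 0 counts could stand at up to 0.439 CPM in the shallowest library and at up to 0.108 CPM in the deepest. These 2 limits use the library totals without adjustment.

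Per kilobase of transcript, the metallothioneins were the most abundant of the 8 genes. Mt1 averaged 577 ± 435 CPM per kilobase (SD, n = 12) and Mt2 averaged 363 ± 326. Slc39a14 followed at 42.4 ± 11.1 and Slc30a1 at 15.4 ± 2.88. Next came Slc39a4 at 12.0 ± 4.31 and Slc30a10 at 8.05 ± 2.68. Mtf1 averaged 3.54 ± 0.793 and Slc39a5 averaged 0.265 ± 0.104. Between neighbours in this order the ranges over the 12 libraries overlapped, except between Slc39a14 and Slc30a1 and between Mtf1 and Slc39a5. Within a library the order held more often. Mt1 exceeded Mt2, Slc39a14 exceeded Slc30a1 and Mtf1 exceeded Slc39a5 in 12 of 12 libraries. Mt2 exceeded Slc39a14, and Slc30a10 exceeded Mtf1, in 11. Slc30a1 exceeded Slc39a4 in 10 and Slc39a4 exceeded Slc30a10 in 9.

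**Figure D1:**
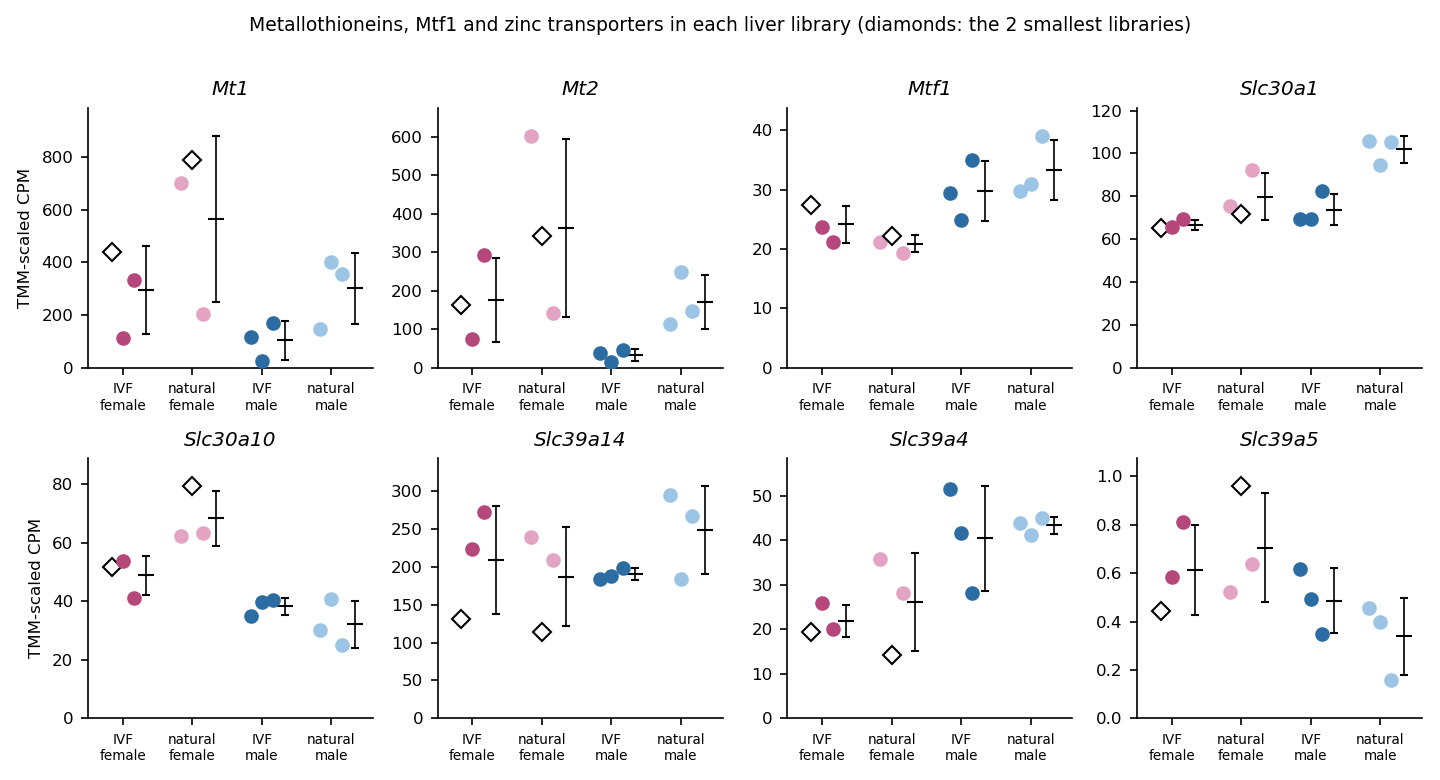
TMM-scaled CPM of the 8 genes (y axes, linear from 0) in the 12 liver libraries by group (x axes), with replicates 1 to 3 from left to right and the group mean ± SD beside them; open diamonds are the 2 smallest libraries. Mt1 and Mt2 spread several-fold within each group, whereas Slc30a1 lay between 65.2 and 105.8 CPM in every library.

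The metallothioneins varied more between libraries than any other member. Unless stated otherwise, gene levels in CPM, here and above, are scaled by TMM, the normalization that edgeR uses to adjust library totals. In the natural females, Mt1 stood at 703, 790 and 206 CPM in replicates 1, 2 and 3. In the IVF females it stood at 441, 111 and 333 CPM. The ranges of the 2 female groups overlapped, and each held 1 library far below the other 2. In the natural males Mt1 stood at 148, 400 and 355 CPM, and in the IVF males at 118, 24.4 and 169 CPM. The IVF males held the lowest library of all 12, and only their highest library reached the range of the natural males. Over all libraries the highest Mt1 level was 32.4 times the lowest. Group means ran in the order natural females (566 ± 315, SD, n = 3), natural males (301 ± 134), IVF females (295 ± 168) and IVF males (104 ± 73.3), and the ranges of neighbours in this order overlapped.

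Mt2 showed a similar pattern with a clearer gap for the IVF males. It stood at 603, 342 and 142 CPM in the natural females and at 164, 74.0 and 292 CPM in the IVF females. In the natural males it stood at 115, 250.04 and 148 CPM. In the IVF males it stood at 38.7, 14.3 and 45.5 CPM. Every IVF male library was below every library of the other 3 groups, and the ranges of those 3 groups overlapped. The mean of the IVF males was 32.8 ± 16.4 CPM (SD, n = 3), against 171 ± 70.4 in the natural males, 177 ± 110 in the IVF females and 362 ± 231 in the natural females.

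Mt1 and Mt2 levels moved together across libraries. The summed level of both was 38.6 to 214 CPM in the IVF males, 263 to 650.1 CPM in the natural males, 185 to 625 CPM in the IVF females and 348 to 1305 CPM in the natural females. Mt1 had more counts than Mt2 in 12 of 12 libraries, by a ratio of 1.14 to 3.71. That ratio averaged 2.82 ± 1.02 (SD, n = 3) in the IVF males, 1.76 ± 0.571 in the natural males, 1.78 ± 0.813 in the IVF females and 1.64 ± 0.596 in the natural females, and the 4 ranges overlapped. After each gene's group mean was subtracted on the log2 CPM scale, Mt1 and Mt2 correlated with Pearson r = 0.88 (exact permutation within groups, two-sided p = 0.0100) and Spearman rho = 0.69 (p = 0.0532) over the 12 libraries. Without the 2 libraries farthest from the median, replicate 2 of the IVF males and replicate 3 of the natural females, r was 0.79. These points share libraries and depth, and how reads common to both genes were counted is not known.

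**Figure D2:**
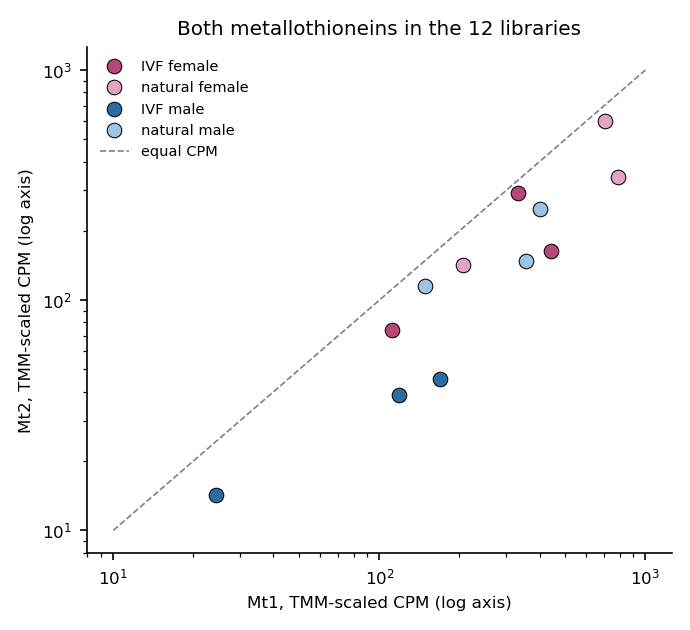
Mt2 (y axis) against Mt1 (x axis) in TMM-scaled CPM on log axes, 1 point per library in the 4 groups; the dashed line marks equal CPM. All 12 points lie below the line, and the 3 IVF male points are the lowest in Mt2, at 14.3 to 45.5 CPM.

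Mtf1, the zinc sensor, was higher in males than in females of natural conception. Its level was 29.7, 31.0 and 39.1 CPM in the natural males and 21.2, 22.2 and 19.3 CPM in the natural females, so these groups did not overlap. It was 29.4, 24.8 and 34.9 CPM in the IVF males and 27.5, 23.7 and 21.2 CPM in the IVF females, which overlapped. Group means ran from 20.9 ± 1.47 CPM (SD, n = 3) in the natural females to 33.3 ± 5.05 in the natural males.

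Slc30a1, the zinc exporter, varied least, with a highest library at 1.62 times the lowest. It stood at 65.2, 65.6 and 69.5 CPM in the IVF females and at 75.4, 71.8 and 92.3 CPM in the natural females. In the IVF males it stood at 69.5, 69.6 and 82.3 CPM, and in the natural males at 105.8, 94.5 and 105.3 CPM. Within each sex, every IVF library was below every naturally conceived library. With TMM the natural males were above all other libraries, and the natural females and the IVF males overlapped. Scaled by total counts alone, males and females overlapped in both modes of conception.

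Slc30a10, the manganese exporter, was highest in the natural females, at 62.5, 79.3 and 63.5 CPM. The IVF females followed at 51.7, 53.8 and 41.3 CPM. Both male groups were lower, at 35.1, 39.6 and 40.5 CPM after IVF and at 30.3, 40.9 and 25.1 CPM after natural conception. Only the 2 male groups, next to each other in this order, overlapped.

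The importers did not separate the modes of conception. Slc39a14 stood at 132, 223 and 273 CPM in the IVF females, at 239, 113 and 208 in the natural females, at 184, 188 and 199 in the IVF males and at 295, 184 and 267 in the natural males. Its lowest levels, 132 and 113 CPM, were in the 2 smallest libraries. Slc39a4 stood at 19.4, 25.9 and 20.0 CPM in the IVF females and at 35.8, 14.3 and 28.2 in the natural females. In males it stood at 51.4, 41.6 and 28.1 CPM after IVF and at 43.7, 41.2 and 45.0 after natural conception. Its lowest levels in the 2 female groups, 19.4 and 14.3 CPM, were again in the smallest libraries, and the part of depth in either pattern was not tested. Slc39a5 had only 3 to 19 counts per library and a level of 0.158 to 0.959 CPM, near the limit that a count of 0 allows, so its differences rest on few reads.

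The first comparison asked whether the members differ between IVF and naturally conceived females. By edgeR's quasi-likelihood test with Benjamini-Hochberg adjustment over all 13204 genes, 0 of 8 members passed an adjusted p of 0.05, where 0% of all genes did, and DESeq2 and limma voom also called 0. Without adjustment, 1 member had p under 0.05, against 3.70% of all genes. That member was Slc30a10, at a log2 fold change of -0.48 ± 0.20 (SE; unadjusted p = 0.0354, adjusted p = 1). The groups did not overlap for 2 members, Slc30a10 and Slc30a1, both lower after IVF, against 3.87% of all genes lower, 3.55% higher and 7.42% in either direction. Slc30a1 differed by -0.26 ± 0.16. Mt1 differed by -0.94 ± 0.71 and Mt2 by -1.04 ± 0.60, both within 2 SE of 0. With each library left out, Mt1 ran from -1.33 (without IVF replicate 1) to -0.55 (without IVF replicate 2), and Mt2 from -1.61 (without IVF replicate 3, unadjusted p = 0.0338) to -0.45 (without natural replicate 1). The median log2 fold change was -0.26 over the members and -0.015 over all genes. Both exporters were also without overlap when scaled by total counts alone.

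In males, the members with the largest differences between IVF and natural conception were the metallothioneins. Mt2 was 5.21-fold lower in the IVF males (log2 fold change -2.38 ± 0.63, SE; unadjusted p = 0.0027, adjusted p = 1 in edgeR), lower in 3 of 3 IVF libraries than in any natural library. Over the alternative settings its adjusted p ranged from 0.0918, with DESeq2, to 1. Mt1 was 2.90-fold lower (-1.54 ± 0.72, unadjusted p = 0.0545, adjusted p = 1), with overlap. Slc30a1 was 1.38-fold lower (-0.46 ± 0.16, unadjusted p = 0.0116, adjusted p = 1), without overlap. So 0 of 8 members passed the adjusted threshold, as 0.00757% of all genes did, and DESeq2 and limma voom called 0 members too. Without adjustment 2 members had p under 0.05, against 2.69% of all genes, and 2 members were lower without overlap, against 4.07% of all genes lower, 4.85% higher and 8.91% in either direction. Slc30a10 differed by 0.26 ± 0.20, in the opposite direction to females, and its male groups overlapped with TMM but were apart, higher after IVF, with totals alone. The median was -0.27 over the members and 0.0098 over all genes.

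Markers of other cells and states differed between the male groups in both directions, none past the adjusted threshold in edgeR. Of 6 Kupffer cell markers, all tested, 0 passed the adjusted threshold between the male groups in edgeR, DESeq2 or limma voom, and 4, all with an unadjusted p under 0.05, were lower in the IVF males without overlap, which are Cd5l, Clec4f, Vsig4 and Adgre1, named after their values were seen. Over all genes 4.07% were lower without overlap and 2.69% had an unadjusted p under 0.05. The summed Kupffer level was 119 to 180 CPM in the IVF males, 216 to 254 in the natural males, 245 to 377 in the IVF females and 234 to 316 in the natural females. Among 7 tested hepatocyte markers, 0 passed in edgeR and 2 were lower in the IVF males without overlap, against 4.07% of all genes. They were Alb and Apoa1, named after their values were seen. The summed hepatocyte level was 80512 to 96446 CPM in the IVF males and 97492 to 104696 in the natural males. It was 103204 to 113351 CPM in the IVF females and 97742 to 107996 in the natural females. Of 16 acute-phase and IL-6 response genes, 15 were lower in the IVF males by sign, with a median log2 fold change of -1.23. In edgeR 0 passed and 7 had an unadjusted p under 0.05, limma voom called 0 and DESeq2 called 1, Saa3, of 5 over all genes. The male groups overlapped for all but 2 of these genes, 1 apart higher and 1 apart lower. Their summed level was 20958 to 32736 CPM in the IVF males and 25075 to 78146 in the natural males. Of 6 sinusoidal endothelial markers 0 were higher in the IVF males by sign and 2 were lower without overlap, against 4.07% of all genes. Of the tested markers, 0 of 4 for cholangiocytes, 0 of 3 for neutrophils and 2 of 6 for stellate cells were higher by sign, and all of these overlapped. Of 6 tested lymphocyte markers 4 were higher in the IVF males by sign. Ms4a1 (log2 fold change 2.26 ± 0.71) and the intestinal marker Lgals4 (1.62 ± 0.54) were higher without overlap. Over the 12 libraries Ms4a1 had 80 counts and Lgals4 had 229, so both differences rest on few reads. Fabp2, the other tested intestinal marker, differed by 0.08 ± 0.38. The erythroid marker Alas2 differed by 0.90 ± 0.78, with overlap. The erythroid sum, with Alas2 as its 1 tested gene, was 174, 25.4 and 22.1 CPM in IVF male replicates 1, 2 and 3. Ms4a1, Lgals4 and Alas2 were named after their values were seen. The part of these genes in the metallothionein levels was not tested, and in whole liver fewer cells of a type and less RNA per cell cannot be told apart.

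Whether the IVF difference itself differs between the sexes was tested as a contrast of the 4 groups. None of the 8 members passed in edgeR, DESeq2 or limma voom (0 of 8 called, 0% of all genes), and 1 had an unadjusted p under 0.05, against 3.87% of all genes. That was Slc30a10, lower after IVF in females and higher in males by fitted value, with a difference of 0.74 ± 0.29 (SE; unadjusted p = 0.0245, adjusted p = 0.99993 in edgeR). For Mt2 the difference was -1.35 ± 0.85 and for Mt1 it was -0.60 ± 0.996, the male value being the lower. With each library left out, Mt2 ran from -1.93 (without natural female replicate 1) to -0.77 (without IVF female replicate 3), and Mt1 from -1.14 (without IVF male replicate 3) to -0.13 (without IVF male replicate 2). The larger metallothionein difference in males is thus not shown to differ from that in females. For Slc30a1 the difference was -0.21 ± 0.22, and 0.0027 when scaled by totals alone.

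**Figure D3:**
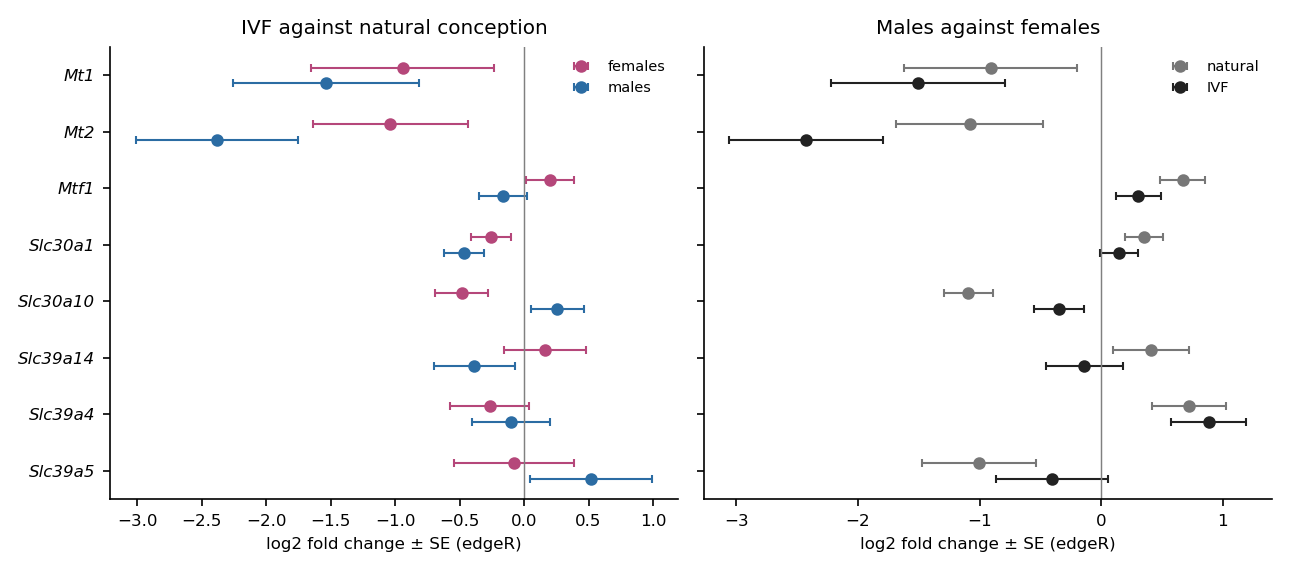
edgeR log2 fold changes with SE bars (x axes) of the 8 genes (rows), for IVF against natural conception in females and males (left) and for males against females after natural conception and after IVF (right). Mt2 reaches -2.38 for IVF in males and -2.43 for males against females after IVF, and Slc30a10 at -1.09 after natural conception is the value that passed the adjusted threshold.

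Between the sexes after natural conception, 1 of 8 members passed the adjusted threshold, against 1.77% of all genes, 0.879% being lower in males. Slc30a10 was 2.13-fold lower in males (log2 fold change -1.09 ± 0.21, SE; adjusted p = 0.0202 in edgeR), lower in 3 of 3 male libraries. Its adjusted p ranged from 0.000102 to 0.113 over the alternatives. It passed the threshold without both smallest libraries (-0.99, adjusted p = 0.0496), but not with only the 6 libraries compared (0.0967), nor without natural female replicate 2 (0.0596), natural male replicate 1 (0.0826) or natural male replicate 3 (0.113). Mtf1 was 1.59-fold higher in males (0.67 ± 0.19, adjusted p = 0.105 in edgeR), and it passed with DESeq2 (0.0223) and with a covariate for the smallest libraries (0.0390), within a range of 0.0223 to 0.365. Slc30a1 differed by 0.35 ± 0.16 and Slc39a4 by 0.72 ± 0.31 (0.42 without both smallest libraries and 0.44 without natural female replicate 2), and their sexes were apart with TMM but overlapped with totals alone.

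Without adjustment, 4 members (Mtf1, Slc30a1, Slc30a10 and Slc39a4) had p under 0.05 between the sexes after natural conception, against 14.9% of all genes. The sexes did not overlap for 5 members, against 20.0% of all genes. Mtf1, Slc30a1 and Slc39a4 were higher in males (3 members, 10.1% of all genes) and Slc30a10 and Slc39a5 lower (2 members, 9.85%), which became 3 members in all with totals alone. That scaling moved the median over all genes from -0.024 to -0.34. Mt1, at -0.91 ± 0.71, and Mt2, at -1.08 ± 0.60, were lower in males by fitted value with overlap. With each library left out, Mt1 ran from -1.30 (without natural female replicate 3) to -0.58 (without natural male replicate 1), and it was -0.60 without both smallest libraries. Mt2 ran from -1.47 (without natural male replicate 2) to -0.49 (without natural female replicate 1).

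After IVF, 0 of 8 members passed between the sexes in edgeR, against 2.19% of all genes. Limma voom called 0 members and DESeq2 called 1, Mt2, where they called 279 and 721 of all 13204 genes. Mt2 was 5.38-fold lower in males (log2 fold change -2.43 ± 0.63, SE; adjusted p = 0.0831 in edgeR), lower in 3 of 3 male libraries, and its adjusted p ranged from 0.00172, with DESeq2, to 0.213 over the alternatives. Slc39a4 was 1.85-fold higher in males (0.89 ± 0.31, adjusted p = 0.192), apart with TMM and overlapping with totals alone. These were the 2 members with an unadjusted p under 0.05, against 14.9% of all genes. The sexes were apart for 4 members, against 21.8% of all genes. Slc39a4 and Slc30a1 were higher (2 members, 11.8% of all genes higher) and Mt2 and Slc30a10 lower (2 members, 10.1% lower). With totals alone 2 members were apart. The summed Kupffer markers given above were also lower in the IVF males than in the IVF females without overlap. The summed hepatocyte markers given above were too, but Alb, at a mean of 64504 CPM, was the largest part of that sum. By sign, 5 of the 7 tested hepatocyte markers were higher in the IVF males (median log2 fold change 0.21), with 1 apart higher and 1 apart lower. Sinusoidal endothelial markers summed to 130 to 152 CPM in the IVF males against 175 to 207 in the IVF females. Stellate markers summed to 159 to 182 against 231 to 360 CPM, and lymphocyte markers to 6.05 to 11.1 against 14.3 to 20.7 CPM. The lymphocyte sum was mostly Ptprc, at a mean of 10.3 CPM, with each other gene of that list at 0.713 CPM or less. Of its 6 tested genes, 1 was higher in the IVF males by sign and 2 were lower without overlap. The sums of the pancreatic acinar and erythroid lists, each with 1 tested gene, were higher without overlap. Clec4f and Vsig4, both Kupffer markers, and the leukocyte marker Ptprc passed the adjusted threshold in this comparison and were named after their values were seen. No other marker of the 10 cell type lists passed in any contrast in edgeR. Their part in the Mt2 level was not tested.

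The other metallothioneins were hardly detected. Mt3 had 18 counts and Mt4 had 1 over the 12 libraries, and neither passed the filter. Of 10 ZnT genes 8 were tested, and of 14 ZIP genes 13 were tested. With both metallothioneins this made 23 tested genes of these families, of which edgeR called the manganese exporter Slc30a10 alone, between the sexes after natural conception. Among the ZnT genes, 2 were lower without overlap after IVF in females and 1 in males, all of them members. Of all genes, 3.87% were lower without overlap in females and 4.07% in males. The median log2 fold change for IVF was -0.024 in females and -0.0051 in males over the ZnT genes, and 0.0092 and -0.088 over the ZIP genes, against -0.015 and 0.0098 over all genes. Between the sexes, 0 of 13 ZIP genes passed in edgeR or limma voom in either mode of conception. In each mode 3 had an unadjusted edgeR p under 0.05, against 14.9% of all genes. DESeq2 called 1 after natural conception, Slc39a11, named after its values were seen, where it called 678 of all 13204 genes.

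Summed over the ZnT family, the level did not overlap between modes of conception in females and overlapped in males. It was 254 to 267 CPM in the IVF females and 280.2 to 288 in the natural females. In males it was 266 to 308 CPM after IVF and 304 to 325 after natural conception. These sums include Slc30a1 and Slc30a10, so they are not a separate result. The ZIP sum was 424 to 631 CPM in the IVF females, 374 to 609 in the natural females, 522 to 604 in the IVF males and 581 to 686 in the natural males, lowest in the 2 smallest libraries.

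**Figure D4:**
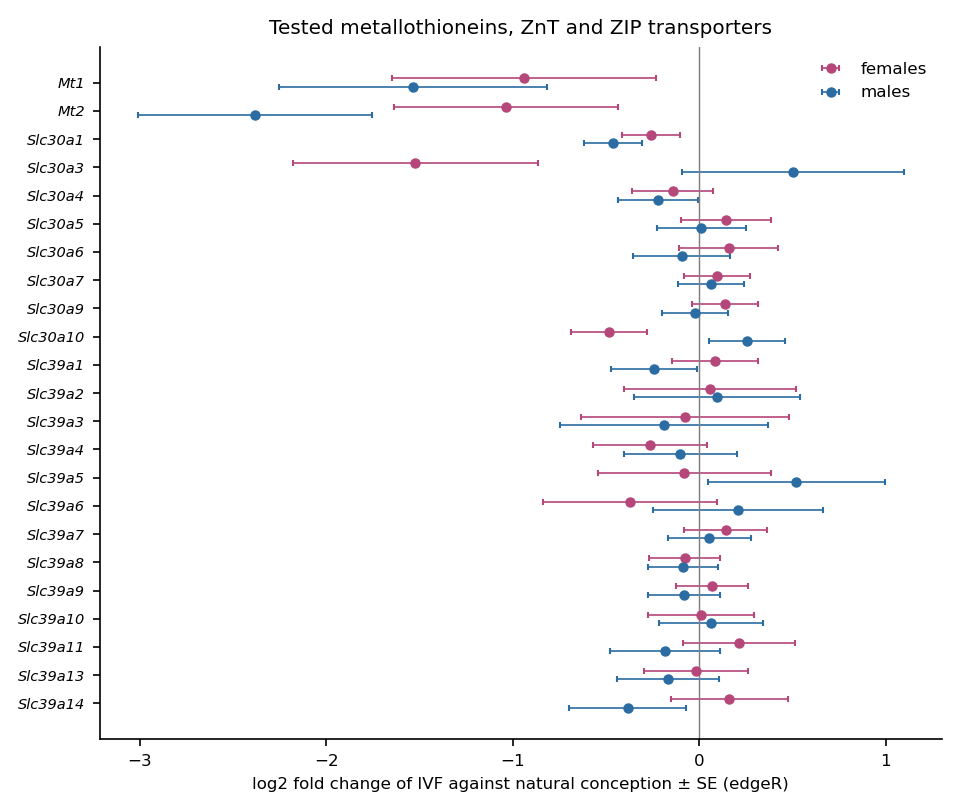
edgeR log2 fold changes of IVF against natural conception with SE bars (x axis) for the 23 tested metallothionein, ZnT and ZIP genes (rows), in females and males. Mt1 and Mt2 lie farthest below 0 in males (-1.54 and -2.38), and most transporters lie within 0.5 of 0 in both sexes. In females Slc30a3 lies farthest below 0 (-1.52 ± 0.66, against 0.50 ± 0.59 in males). It had 170 counts over the 12 libraries and was named after its values were seen.

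Lists of related pathways were read for the same contrasts. Of the acute-phase genes, edgeR called 4 of 16 between the sexes after natural conception, all higher in males, against 1.77% of all genes. The edgeR calls were the haptoglobin gene Hp (log2 fold change 1.78 ± 0.36), the hemopexin gene Hpx (1.996 ± 0.44), and the serum amyloid genes Saa1 (4.30 ± 0.95) and Saa3 (4.63 ± 1.01). Limma voom called 2 of these, Hp and Saa1, where it called 232 of all 13204 genes. DESeq2 called 7 genes of the list, where it called 678 of all 13204 genes. Mt1 and Mt2 were lower in males by fitted value in that contrast. DESeq2 called Errfi1, Per1 and Tsc22d3 of 9 glucocorticoid response genes between the sexes after natural conception, where it called 678 of all genes. In edgeR or limma voom 0 of the 9 were called. For IVF, 1 of the 9 had an unadjusted p under 0.05 in each sex, against 3.70% of all genes in females and 2.69% in males. The largest difference for IVF among them was in the clock gene Per1 in females (1.87 ± 0.64, adjusted p = 1 in edgeR). Of 9 oxidative and heavy metal stress genes, the heat shock gene Hspa1b was called, higher in males after natural conception (3.64 ± 0.77, adjusted p = 0.0355 in edgeR), against 1.77% of all genes. Limma voom called 2 of the list there, Hspa1a and Hspa1b, and DESeq2 called 4, Dnajb1, Hspa1a, Hspa1b and Nqo1, all named from their calls by these tools. Of 11 tested copper-handling genes 0 were called in edgeR, DESeq2 or limma voom. For IVF, 1 had an unadjusted p under 0.05 in males and 0 in females, against 2.69% and 3.70% of all genes. By sign, 1 of the 11 was higher after IVF in males and 8 in females. In males 2 were lower without overlap (4.07% of all genes), and in females 1 was higher without overlap (3.55%). For the male minus the female IVF difference, 0 of 11 were above 0, with a median of -0.35, and 1 had an unadjusted p under 0.05 (3.87% of all genes). The largest IVF difference among these was in the ceruloplasmin gene Cp in males (-0.72 ± 0.28, adjusted p = 1 in edgeR).

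The genes whose levels followed the metallothioneins most closely were ranked over 7356 genes of at least 10 CPM. Likeness was the Pearson correlation, over the 12 libraries, of log2 CPM deviations from the group mean with the mean deviation of Mt1 and Mt2. The 5 highest were Ptcd2 (r = 0.91), Rab11fip3 (r = 0.87), Usp39 (r = 0.87), Pdia6 (r = 0.86) and Papss1 (r = 0.85). Their Spearman rho ran from 0.68, for Rab11fip3, to 0.76. Exact permutations within groups gave two-sided p from 0.0023 to 0.0147 for r and from 0.0208 to 0.0409 for rho, where the smallest possible is 0.000772, and the adjusted values were 0.951 and 1. So none stood out from the number of genes ranked. Without the 2 libraries farthest from the median, r was 0.76 to 0.88. The other members did not follow the metallothioneins beyond this spread. Mtf1 had r = 0.53 (rho = 0.45) and the other 5 had r from -0.29, for Slc39a4, to -0.0017, for Slc30a10, with adjusted exact permutation p of at least 0.931 over the 6 members compared.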

How the data were processed

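Liver RNA from 12 libraries was counted per gene symbol, and the authors deposited 1 table of raw read counts. Reads were processed with Trimmomatic 0.32, STAR 2.3.0e and featureCounts 1.5.0 on mm10, per the submitters' processing notes. The annotation, strand setting and treatment of multiply mapping reads are not given in the sources used here. All 12 count columns were matched to samples by title. The members and gene lists were chosen with earlier results of these data known.

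Counts were fitted with edgeR 4.0.16 (R 4.3.3): filterByExpr by group, TMM, 1 quasi-likelihood fit over all libraries with a mean per group, 5 contrasts and Benjamini-Hochberg adjustment over 13204 genes, called under 0.05. The SE was taken as |log2 fold change| / √F. Levels per kilobase use the longest transcript with a CCDS tag in GENCODE M21. Log2 CPM for correlations had a prior count of 2. Groups were called apart where their libraries did not overlap. Named genes were the members, from each of 7 pathway lists every called gene or otherwise the gene with the largest IVF difference at a mean of at least 1 CPM, and the 5 genes most like Mt1 and Mt2. Other names are marked as chosen after their values were seen. A further 10 lists held cell type markers. Promoter windows came from RefSeq. Alternatives were DESeq2 1.42.0, limma voom (limma 3.58.1), other scalings, filters, samples and a covariate. The model code was tested on simulated data.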

Additional observations from a re-analysis of the deposited data

How the results depend on the processing

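Over the 40 log2 fold changes of members, 826 values under alternative settings gave 807 with the same direction and side of the threshold, 12 reversals, 3 that newly passed and 4 that no longer passed, and 33 of the 40 had no reversal. The cause of these changes was not tested. Between the sexes after natural conception the count of members called was 1, and it was 2 with the DESeq2 Wald test, 2 with the covariate, 0 with only the 6 libraries compared, and 0 to 1 when each library was left out. After IVF it was 0, and 1 with DESeq2. Reversed values were small. With each library left out, the IVF difference in females ran from -0.097 to 0.42 for Slc39a14 (below 0 without IVF female replicate 3, at -0.077, or natural female replicate 2), from -0.55 to 0.036 for Slc39a4 (above 0 without natural female replicate 1) and from -0.35 to 0.15 for Slc39a5. Slc39a5 was above 0 without either smallest library (0.062 and 0.15) and at 0.29 without both, a setting added after seeing the data. In males Slc39a4 ran from -0.31 to 0.10 (above 0 without IVF male replicate 3) and was 0.046 with library size alone. Its difference between the sexes in the IVF difference ran from -0.14 to 0.45, below 0 without natural female replicate 1 or IVF male replicate 1 (-0.050). The sex difference of Slc39a14 after IVF ran from -0.41 to 0.10, above 0 without IVF female replicate 3. Without both smallest libraries it was -0.41 in place of -0.14, and after natural conception 0.14 in place of 0.41. For Slc30a1 the difference between the sexes in the IVF difference was 0.0027 with library size alone. Correlation with the metallothioneins was -0.0078 for Usp39, -0.085 for Pdia6 and -0.38 for Papss1 when group means were not subtracted.

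Genes called over the whole table after natural conception went from 234 to 510 with library size alone, 678 with DESeq2, 139 with only 6 libraries, 458 with the covariate and 111 to 263 with a library left out. After IVF they went from 289 to 721 with DESeq2, 438 with the covariate and 137 to 348 with a library left out. For IVF in females, in males and their difference, DESeq2 called 4, 5 and 9 genes. With library size alone the median of all genes was 0.14 for IVF in males, 0.23 for the difference between the sexes and -0.10 between the sexes after IVF. At a mean of at least 1 CPM, Slc39a5 was not tested. No paired analysis was possible because the groups compared share fewer than 2 title numbers. IVF female replicate 1 and IVF male replicate 2 carry the same first number, whose meaning the labels do not state.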
